A study of Homo sapiens with 6 samples.

Results

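The 10 genes of ribosome assembly in the nucleolus followed here were NCL, NPM1, FBL, NOP56, NOP58, DKC1, BOP1, PES1, RRP9 and POLR1B. They were chosen by gene symbol, and all 10 have a row among the 16659 genes kept from the deposited table. The cells were HepaRG, a human liver cancer cell line that the labels class as hepatic stem cells, grown without drug. The 3 libraries labelled as a functional knockout of PXR were set against 3 wild-type libraries, the control. PXR, the pregnane X receptor encoded by NR1I2, senses drugs and other foreign compounds in liver and raises transcription of the enzymes that clear them. How the receptor was disabled, and whether the knockout cells are a single clone, is not given in the sources used here. Every group shares the cell line, the absence of drug and the library kit.

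The nucleolus is where RNA polymerase I transcribes the ribosomal RNA genes and where the transcript is modified, cut and joined to ribosomal proteins. POLR1B encodes the second-largest subunit of that polymerase. Particles built on small nucleolar RNAs guide the chemical marks: box C/D particles methylate riboses, with FBL as the methyltransferase and NOP56 and NOP58 as its scaffold, and box H/ACA particles make pseudouridine, with dyskerin (DKC1) as the enzyme. RRP9 binds the U3 small nucleolar RNA, which is needed to release the small subunit RNA. PES1 and BOP1 form, with WDR12, a complex needed for the large subunit. Nucleolin (NCL) and nucleophosmin (NPM1) are abundant nucleolar phosphoproteins with histone and RNA chaperone activity. Many of these genes are known as targets of the transcription factor MYC, which binds the E-box CACGTG.

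Levels are in scaled CPM, read counts divided by a scaled library size, on a linear scale. A log2 fold change is knockout minus wild type on the log2(scaled CPM + 0.5) scale, tested with limma over all 16219 genes that passed a filter on low values. A gene was called at a Benjamini-Hochberg adjusted p under 0.05. Estimated depths were 28154914 to 33393110 reads in the knockout and 11359209 to 20945994 reads in wild type, so every knockout library was deeper. The 10 genes had between 386 and 17017 estimated reads per library, and all 10 passed the filter. NR1I2 itself averaged 13.6 ± 0.62 CPM in the knockout and 7.63 ± 0.60 CPM in wild type (SD, n = 3 each). A total over the whole gene does not check a functional knockout, and "knockout" below means the libraries that carry that label. The labels do not say whether the libraries are separate cultures. The p-values therefore reflect only spread among these libraries, and that spread may be technical.

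The promoters of the 10 genes are shown first, as a description. Their part in the changes below was not tested. Of the 10, 8 were searched in the RefSeq promoter table (GRCh38.p14), which holds 250 bases before and 50 after a gene's start. NOP58 and BOP1 were not among them. For the 10 genes, entries on the chromosome of BOP1 were left out, so BOP1 was not searched whether or not it had one. Among all tested genes that chromosome was kept. POLR1B had 2 windows there, and a motif in either was counted. The E-box CACGTG, which reads the same on both strands, was in 3 of the 8 (FBL, PES1, RRP9). It was in 12.4% of the 11129 tested genes with an entry. Counted from the start as base 1, the E-box began at base 7 in FBL, at base 14 in PES1 and 5 bases before the start in RRP9. These 30-base windows are set side by side because the E-box, in capitals, lies close to the start in each.
FBL: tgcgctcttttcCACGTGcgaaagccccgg
PES1: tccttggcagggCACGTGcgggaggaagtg
RRP9: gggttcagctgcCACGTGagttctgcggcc
They lie on the minus strand at chr19:39846356-39846385, chr22:30591880-30591909 and chr3:51941892-51941921. The genes that hold the E-box had both the largest and the smallest change of the 10, PES1 and RRP9. No E-box letters stood in these windows of NCL, NPM1, NOP56, DKC1 and POLR1B.

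The ETS-type core CCGGAAG, on either strand, was in 3 of 8 (FBL, POLR1B, RRP9), against 21.1% of tested genes. CCAAT was in 6 of 8 against 43.6%, and the GC box GGGCGG in 6 of 8 against 73.3%. No matches overlap in the stretches printed here. Shown are upstream stretches that lie outside annotated exons, for the methyltransferase, the U3 protein, nucleolin and the polymerase subunit, with complete matches to the 4 motifs on either strand in capitals. The ETS-type core of POLR1B begins in the last 5 bases of its stretch and runs past the end, so it is not in capitals.
FBL, chr19:39846415-39846629, minus strand: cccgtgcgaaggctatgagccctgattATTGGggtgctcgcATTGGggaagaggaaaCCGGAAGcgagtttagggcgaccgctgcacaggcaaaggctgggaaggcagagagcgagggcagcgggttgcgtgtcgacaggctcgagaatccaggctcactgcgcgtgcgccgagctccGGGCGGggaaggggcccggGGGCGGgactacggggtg
RRP9, chr3:51941942-51942154, minus strand: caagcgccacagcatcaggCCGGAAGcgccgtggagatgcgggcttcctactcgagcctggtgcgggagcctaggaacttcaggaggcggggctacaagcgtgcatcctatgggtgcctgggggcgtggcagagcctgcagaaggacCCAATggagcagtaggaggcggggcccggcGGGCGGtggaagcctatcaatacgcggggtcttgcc
NCL, chr2:231464595-231464734, minus strand: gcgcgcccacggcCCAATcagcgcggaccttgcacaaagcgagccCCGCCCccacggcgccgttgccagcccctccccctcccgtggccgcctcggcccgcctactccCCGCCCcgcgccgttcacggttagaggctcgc
POLR1B, chr2:112541786-112541914, plus strand: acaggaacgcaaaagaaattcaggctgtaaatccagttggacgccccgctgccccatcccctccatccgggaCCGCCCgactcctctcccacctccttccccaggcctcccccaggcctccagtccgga
A match is a description of these letters and does not show that a factor binds there.

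All 10 genes were lower in the knockout, and none was higher. Among all tested genes 79.9% were called, 39.6% lower and 40.3% higher. A fall larger than the smallest of the 10 was found in 22.6% of all tested genes. Knockout and wild-type libraries did not overlap at any of the 10, where 40% of all tested genes showed such a gap with the knockout below. The median log2 fold change of the 10 was -0.83, against 0.01 for all tested genes. Knockout means ran from 30.8% to 69.6% of wild-type means, with a median of 56.2%. Summed over the 10 genes, each knockout library held 1217 to 1225 CPM and each wild-type library 2145 to 2159 CPM. Of the 10, 3 (PES1, NOP58 and POLR1B) fell by at least 2-fold, where 10.1% of all tested genes did. In these bulk samples a lower level per cell cannot be told apart from a smaller share of cells that express a gene.

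**Figure D1:**
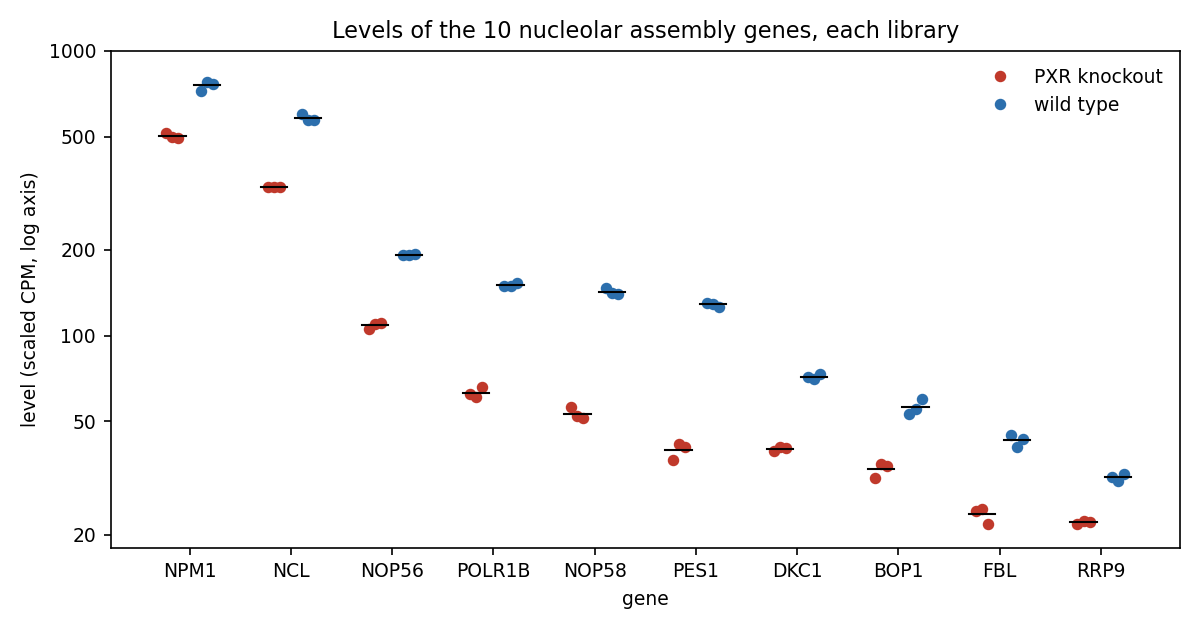
Scaled CPM (log axis) of each gene in the 3 knockout libraries (red, left) and the 3 wild-type libraries (blue, right), with the group mean as a line and genes in order of their wild-type mean. Every red point lies below every blue point of its gene, from NPM1 at 502 against 755 CPM to RRP9 at 22.2 against 31.9 CPM.

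POLR1B (ENSG00000125630.15, chr2:112541915-112577150), the polymerase I subunit, had 62.4, 60.7 and 66.1 CPM in knockout libraries, against 149, 149.97 and 153 CPM in wild-type libraries. Every knockout library lay far below the lowest wild-type one. Its log2 fold change was -1.25 ± 0.035 (SE; limma adjusted p = 3.1e-13), the third-largest fall of the 10. The other subunits of the enzyme moved less far in the same direction, except for 1. Of the 8 subunit genes, 7 fell and POLR1F rose, and the median log2 fold change was -0.76. POLR1D, an assembly subunit shared with polymerase III, averaged 58.3 ± 1.05 CPM in the knockout and 110.2 ± 4.47 CPM in wild type. POLR1A, the largest subunit, fell only to 109 ± 1.11 CPM in the knockout, against 128 ± 2.23 CPM in wild type. POLR1F rose to 35.7 ± 0.83 CPM in the knockout, against 28.3 ± 1.17 CPM in wild type. POLR1G, POLR1H, POLR1E and POLR1C had log2 fold changes of -0.85, -0.81, -0.71 and -0.50.

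All 7 genes for the initiation and termination factors of polymerase I also fell, with a median of -0.52. TAF1A, a subunit of the promoter selectivity factor, and the termination factor gene TTF1 fell most, by 1.21 and 1.16 on the log2 scale. UBTF, the upstream binding factor, averaged 68.5 ± 0.48 CPM in the knockout and 98.7 ± 5.55 CPM in wild type. RRN3, which links the polymerase to the promoter, averaged 94.1 ± 0.31 CPM in the knockout and 127 ± 6.50 CPM in wild type (SD, n = 3 each).

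The box C/D core was lower at each of its members, but not by the same amount. FBL (ENSG00000105202.9, chr19:39834458-39846414) had 24.2, 24.6 and 21.9 CPM in knockout libraries, against 44.9, 40.6 and 43.4 CPM in wild-type libraries. NOP56 (ENSG00000101361.17, chr20:2652145-2658393) had 106, 110.0 and 111 CPM in knockout libraries, against 191, 192 and 193 CPM in wild-type libraries. NOP58 (ENSG00000055044.11, chr2:202265716-202303666) had 56.0, 52.3 and 51.4 CPM in knockout libraries, against 147, 141 and 139.7 CPM in wild-type libraries. The gap between the groups was therefore widest for NOP58, whose knockout mean was 37.4% of its wild-type mean, against 56.7% for NOP56 and 54.8% for FBL. The log2 fold changes were -0.85 ± 0.056 for FBL, -0.82 ± 0.028 for NOP56 and -1.41 ± 0.038 for NOP58 (SE; limma adjusted p = 3.9e-09, 2.8e-12 and 1.9e-13).

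NOP56 and NOP58 are paralogs that pair in the particle, so their ratio was compared within each library. On the log2 scale the ratio of NOP56 to NOP58 was 0.91, 1.06 and 1.10 in knockout libraries, against 0.38, 0.44 and 0.46 in wild-type libraries. It was higher in all 3 knockout libraries, by 0.59. The ratio of FBL to NOP58 was also higher in each, by 0.56. For each ratio the exact two-sided permutation p was 0.1, which is the smallest that 3 libraries against 3 allow, and it was 0.1 after adjustment over the 4 ratios examined. These ratios were picked with the changes known and are given as descriptions.

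**Figure D2:**
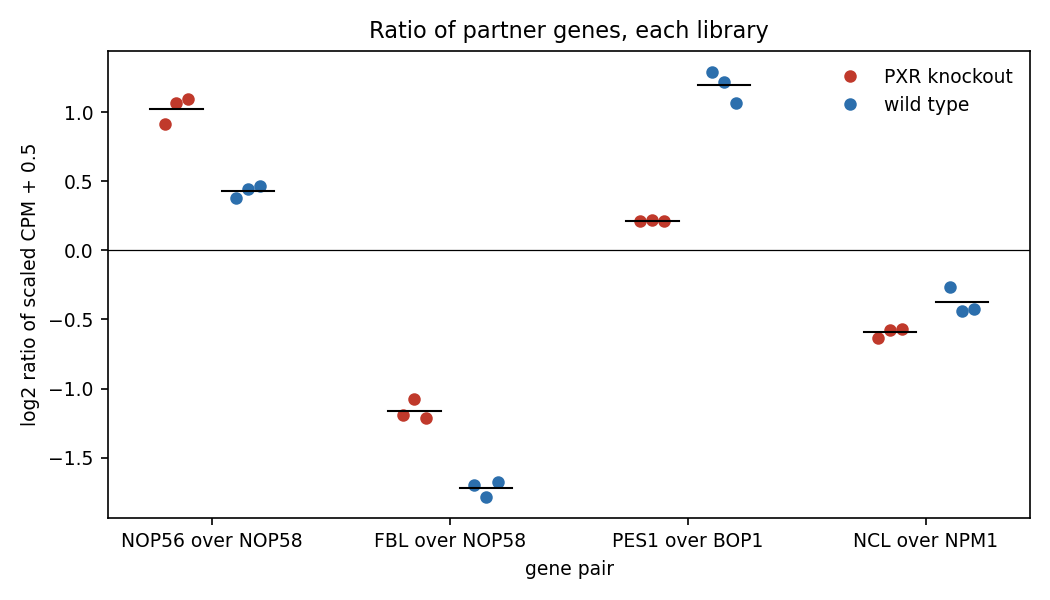
Log2 ratio of scaled CPM + 0.5 between genes whose proteins act together, in each knockout (red, left) and wild-type (blue, right) library, with group means as lines. NOP56 over NOP58 and FBL over NOP58 are higher in the knockout, PES1 over BOP1 and NCL over NPM1 lower, and the groups overlap in none of the 4.

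Around that core, the list of box C/D proteins and their assembly factors held 11 tested genes, of which 9 fell and 2 rose (median -1.13). RUVBL2, an ATPase of the assembly complex, averaged 59.2 ± 2.84 CPM in the knockout and 201 ± 2.66 CPM in wild type. PIH1D1, its adaptor, averaged 30.5 ± 0.40 CPM in the knockout and 99.2 ± 2.01 CPM in wild type. The remaining core protein gene, SNU13, had a log2 fold change of -1.36, and it lies on chromosome 22, where the median of tested genes other than PES1 was -0.77. RPAP3 and ZNHIT3, which also serve in assembly, rose by 0.36 and 0.24. ZNHIT3 was no longer called when libraries were scaled to equal sums (log2 0.10).

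DKC1 (ENSG00000130826.18, chrX:154762742-154777689), the pseudouridine synthase, had 39.2, 40.8 and 40.2 CPM in knockout libraries, against 71.9, 70.3 and 73.4 CPM in wild-type libraries. The groups were clearly apart and each was tight, with a log2 fold change of -0.83 ± 0.037 (SE; limma adjusted p = 4.2e-11). Of the 6 genes for the H/ACA particle and its assembly, 5 fell, none rose and NAF1 did not pass the test (4.68 ± 0.71 CPM in the knockout, 5.48 ± 0.63 CPM in wild type). The core proteins GAR1, NHP2 and NOP10 had log2 fold changes of -1.41, -1.39 and -0.57. The assembly factor gene SHQ1 fell by 1.27.

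RRP9 (ENSG00000114767.7, chr3:51933430-51941941) had 21.9, 22.4 and 22.2 CPM in knockout libraries, against 31.8, 30.97 and 32.8 CPM in wild-type libraries. It was the least changed of the 10, at -0.51 ± 0.049 (SE; limma adjusted p = 2.2e-07), yet each knockout library lay below each wild-type one. The RNA that its protein binds is U3. SNORD3A, the U3 gene with most reads, was looked at after its values were seen. It had 8654, 9788 and 7762 CPM in knockout libraries, against 10990, 9924 and 8884 CPM in wild-type libraries. These ranges overlap, and the call for SNORD3A (log2 -0.19, limma adjusted p = 0.0446) was lost under 7 of 14 alternatives. The other U3 rows examined were far lower in level and fell further. SNORD3B-1 averaged 66.7 ± 5.96 CPM in the knockout and 147 ± 16.2 CPM in wild type, and SNORD3B-2 averaged 41.8 ± 4.49 CPM in the knockout and 128 ± 15.6 CPM in wild type. Near-identical U3 copies share reads, and small RNAs without a poly(A) tail are poorly measured with an mRNA kit.

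RRP9 belongs to the small subunit processome, the large particle that folds and cuts the small subunit RNA. That list held 40 tested genes (median -0.58), of which 34 fell, 4 rose and 2 missed the threshold. The largest falls were those of PDCD11, which averaged 105 ± 2.70 CPM in the knockout and 352 ± 3.46 CPM in wild type, and of WDR3, with 72.3 ± 0.90 CPM in the knockout and 239 ± 1.30 CPM in wild type. Both encode structural proteins of the particle. RCL1 rose to 54.6 ± 0.89 CPM in the knockout, against 26.7 ± 2.25 CPM in wild type, and NOC4L to 12.6 ± 0.89 CPM in the knockout, against 9.17 ± 0.78 CPM in wild type. UTP4 and NOP14 were the genes that did not pass the test, with log2 fold changes of 0.026 and -0.014. In the list of late small subunit maturation, 6 of 7 genes fell and none rose (median -0.48), led by the kinase gene RIOK1 at -0.96 and the export factor gene LTV1 at -0.63.

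PES1 and BOP1 encode direct partners, and they differed more from each other than any other pair examined. PES1 (ENSG00000100029.18, chr22:30576625-30607083) had 36.7, 41.6 and 40.6 CPM in knockout libraries, against 130.3, 129 and 126 CPM in wild-type libraries. BOP1 (ENSG00000261236.8, chr8:144262102-144291370) had 31.6, 35.6 and 35.01 CPM in knockout libraries, against 52.9, 55.1 and 60.0 CPM in wild-type libraries. PES1 thus had the largest fall of the 10, at -1.69 ± 0.043, and BOP1 a smaller one, at -0.71 ± 0.055 (SE; limma adjusted p = 1.3e-13 and 2.5e-08). The log2 ratio of PES1 to BOP1 was 0.21, 0.22 and 0.21 in knockout libraries, against 1.29, 1.22 and 1.07 in wild-type libraries (difference -0.98, exact permutation p = 0.1). WDR12, the remaining subunit of the complex, had a log2 fold change of -1.01.

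PES1 lies on chromosome 22, where the median log2 fold change of the other 376 tested genes was -0.77, and -0.72 for the 203 within a 20 Mb window around it. The part of this regional shift in the fall of PES1 was not tested. The chromosome medians of the other 9 genes lay between -0.10 and 0.05, and their window medians between -0.27 (RRP9) and 0.01 (NPM1). All 10 genes, chosen with earlier results known, fell by more than the median of their window. How many other tested genes did so was not counted. Where a window median lies near 0, such a count mostly restates the fall, so it is no check on a regional part. PES1P1, a processed pseudogene of PES1 with a row of its own, averaged 1.11 ± 0.025 CPM in the knockout and 5.19 ± 0.83 CPM in wild type. Reads may be shared between PES1 and this copy, but its level was small beside that of PES1. TCN2, on the opposite strand, overlaps PES1 only from its own start at base 30606838 to the end of PES1 at base 30607083. It averaged 27.2 ± 1.73 CPM in the knockout and 43.7 ± 2.49 CPM in wild type. The kit keeps strand, but whether the counting used it is not given in the sources used here.

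The wider list of large subunit assembly held 52 tested genes (median -0.75), of which 48 fell, 2 rose and 2 missed the threshold. EBNA1BP2, a binding partner within early large subunit particles, averaged 53.2 ± 1.97 CPM in the knockout and 209 ± 5.49 CPM in wild type, the largest fall on the log2 scale of any gene in these assembly lists. The helicase genes DDX54 and DDX51 rose by 0.19 each, and both calls were lost when libraries were scaled to equal sums. The call for DDX51 was also lost without knockout library 2 (limma adjusted p = 0.0716) and without wild-type library 3 (0.0602). DDX56 and SENP3 did not pass the test, with log2 fold changes of 0.0085 and 0.038.

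The most abundant of the 10 changed less than the median. NPM1 (ENSG00000181163.13, chr5:171387116-171411137) had 515, 497 and 495 CPM in knockout libraries, against 724, 777 and 765 CPM in wild-type libraries. NCL (ENSG00000115053.16, chr2:231453531-231483641) had 332, 333 and 334 CPM in knockout libraries, against 601, 574 and 571 CPM in wild-type libraries. Knockout libraries agreed closely for NCL, with a coefficient of variation of 0.29%, and lay well under the wild-type range. Log2 fold changes were -0.59 ± 0.030 for NPM1 and -0.81 ± 0.027 for NCL (SE; limma adjusted p = 2.4e-10 and 1.8e-12). The log2 ratio of NCL to NPM1 was -0.59 ± 0.035 in the knockout and -0.38 ± 0.094 in wild type (SD, n = 3 each), a difference of -0.22 (exact permutation p = 0.1). NPM1 has many processed pseudogenes. A copy with a row, NPM1P51, averaged 1.39 ± 0.14 CPM in the knockout and 1.84 ± 0.55 CPM in wild type, so reads placed there were few beside NPM1.

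Other genes of nucleolar phosphoproteins fell further. TCOF1, whose product treacle brings factors to ribosomal genes, averaged 51.1 ± 2.50 CPM in the knockout and 151 ± 4.07 CPM in wild type. NPM3, a relative of NPM1, averaged 9.02 ± 0.74 CPM in the knockout and 26.5 ± 0.94 CPM in wild type. All 5 genes of that list fell, NPM1 and NCL included, with a median of -1.24.

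**Figure D3:**
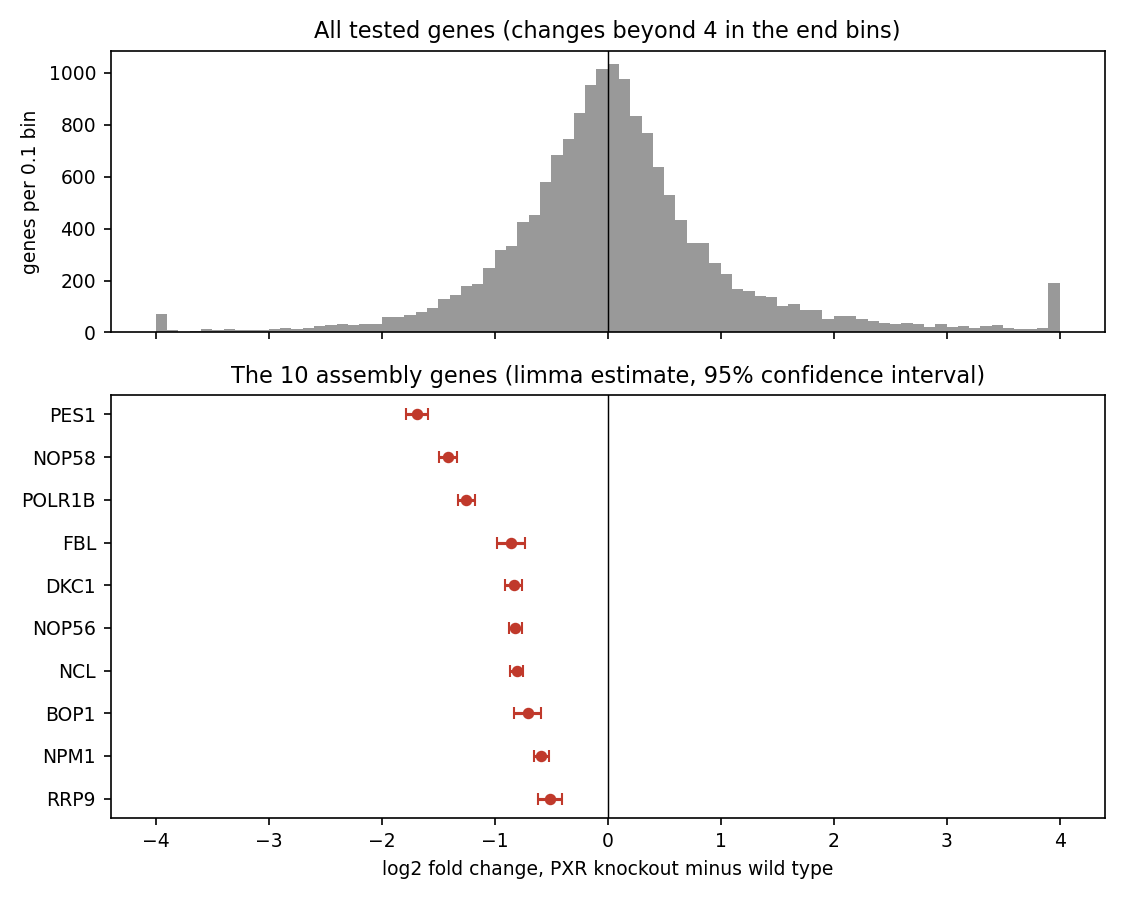
Upper panel, number of tested genes per bin of 0.1 of the log2 fold change, knockout minus wild type. Lower panel, the limma estimate (point) and 95% confidence interval (bar) of the 10 genes, all left of 0, from PES1 at -1.69 to RRP9 at -0.51, with 4 of them (FBL, DKC1, NOP56 and NCL) between -0.85 and -0.81.

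Compared per length, using the longest principal transcript of each gene in GENCODE 29, the order of levels differed between the groups at its lower end. In the knockout the order was NPM1 (286 CPM per kb), NCL (82.5), NOP56 (45.4), NOP58 (26.0), FBL (20.3), PES1 (17.3), DKC1 (15.6), BOP1 (14.8), RRP9 (14.1) and POLR1B (13.8). In wild type it was NPM1 (430 CPM per kb, rounded from 429.7), NCL (144), NOP56 (80.0), NOP58 (69.6), PES1 (56.1), FBL (37.1), POLR1B (33.1), DKC1 (27.9), BOP1 (24.3) and RRP9 (20.2). In wild type no neighbours in this order overlapped. In the knockout DKC1 and BOP1 overlapped, as did BOP1 and RRP9, and RRP9 and POLR1B, so neighbours in this stretch of the order do not differ beyond their spread. DKC1 (15.2 to 15.8 CPM per kb) did lie above RRP9 (13.9 to 14.2) and POLR1B (13.3 to 14.5) in every knockout library. By its mean POLR1B had rank 10 in the knockout, where its range overlapped those of RRP9 and BOP1, and rank 7 in wild type. PES1 had rank 6 in the knockout and rank 5 in wild type.

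Over the 8 lists of ribosome production together, the 10 genes left aside, 126 genes were tested. Of these 111 (88.1%) fell, 9 rose and 6 missed the threshold. Their median log2 fold change was -0.64, and 39 fell by at least 2-fold. Of 39 tested genes for cytosolic ribosomal proteins, 38 fell and none rose (median -0.84). RPL3, which lies on chromosome 22, fell by 1.47. Among tested genes outside all lists, SORT1 and then HAUS7 had the log2 profiles over the 6 libraries that lay nearest the mean profile of the 10. Their Euclidean distances were 0.015 and 0.042, against 0.14 (DKC1) to 0.92 (PES1) for the 10 themselves. Short distances follow from picking the nearest of so many genes, while the 10 were not picked by distance.

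**Figure D4:**
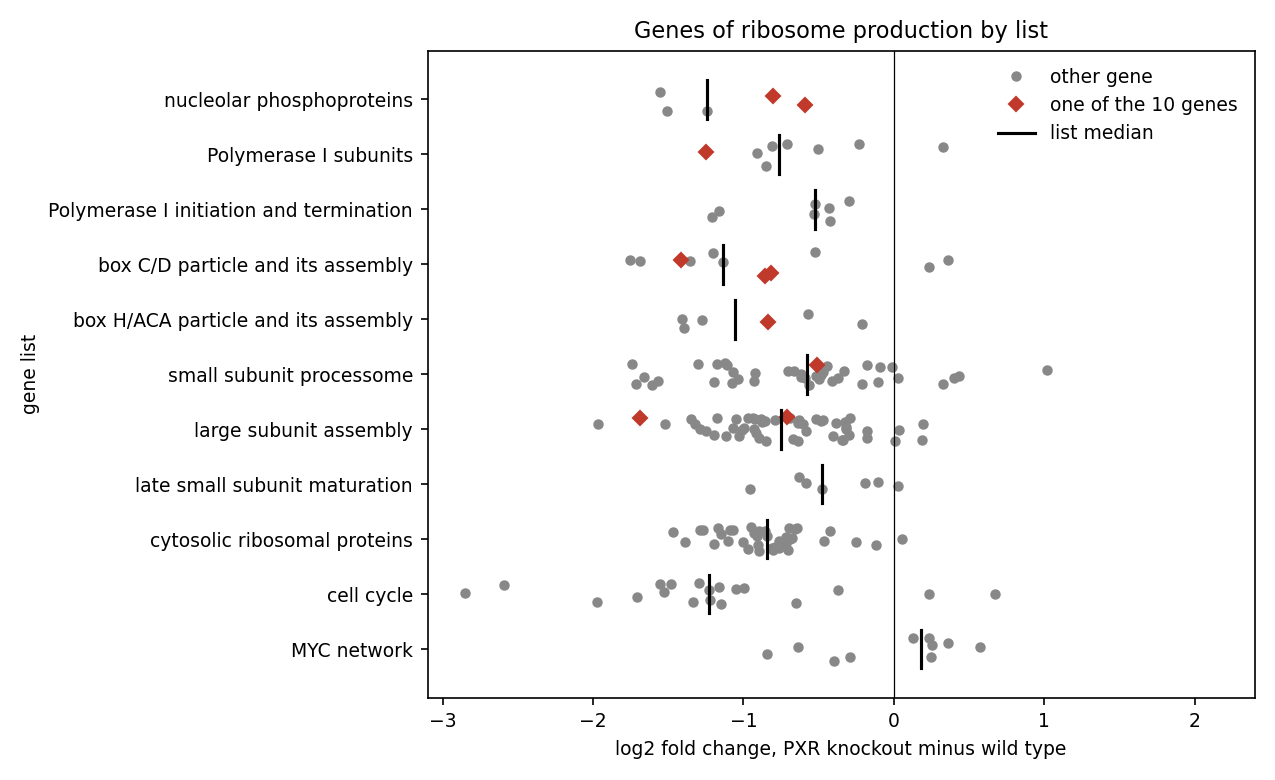
Log2 fold change, knockout minus wild type, of every tested gene in 11 lists, with the 10 genes as red diamonds, other genes as grey points (vertical scatter carries no meaning) and list medians as black lines. Medians of the 8 assembly lists lie between -1.24 and -0.48, that of cytosolic ribosomal proteins at -0.84, that of the cell cycle at -1.23 and that of the MYC network at 0.18.

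MYC is known to drive many of these genes. Its part here was not tested, and neither its protein nor its activity was measured. The mRNA of MYC averaged 72.0 ± 4.08 CPM in the knockout and 65.7 ± 2.75 CPM in wild type. Its log2 fold change of 0.13 ± 0.045 (SE; limma adjusted p = 0.0158) turned to -0.0068 and -0.025, neither called, when libraries were scaled to equal sums, counting small RNA genes or leaving them out. It was also not called with quantile normalization (log2 0.087), without a mean-variance trend, without knockout library 3 (0.087) or without wild-type library 1 (0.098). Of 10 tested genes of the MYC network, 5 rose, 4 fell and MXD3 did not pass the test. MXD3 averaged 9.004 ± 1.16 CPM in the knockout and 7.56 ± 0.46 CPM in wild type. Among all tested genes 40.3% rose and 39.6% fell, so the split in this list is near that of all genes. The number of network genes that rose was 2 with libraries scaled to equal sums and 3 without knockout library 3. MAX, the obligate partner of MYC, fell to 30.5 ± 1.05 CPM in the knockout, against 40.3 ± 1.33 CPM in wild type. The antagonist genes MXI1 and MXD4 fell by 0.84 and 0.63, and MNT and MXD1 rose by 0.25 and 0.36. The groups overlapped at MXD1, and its call was lost with equal sums and without knockout library 2 (log2 0.31) or 3 (log2 0.32). The call for MNT was lost with equal sums (log2 0.11). MLX rose by 0.25, MYCL by 0.57 from a level near 1 CPM, and MGA fell by 0.29.

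Signs of growth and of cell state moved with these genes, and their part in the result was not tested. Against 39.6% lower among all tested genes, 17 of 19 tested cell cycle genes fell and 2 rose (median -1.23). MCM5 and CDC20 fell most, by 2.85 and 2.59, while TYMS and PCNA rose by 0.68 and 0.23. MCM5 lies on chromosome 22. MKI67, the proliferation marker, averaged 50.7 ± 2.98 CPM in the knockout and 114 ± 7.95 CPM in wild type. MDM2, which encodes a ubiquitin ligase, and CDKN1A, which encodes an inhibitor of cyclin-dependent kinases, were chosen after their values were seen and were higher. MDM2 averaged 2993 ± 39.2 CPM in the knockout and 179 ± 6.51 CPM in wild type, and CDKN1A averaged 664 ± 17.3 CPM in the knockout and 35.1 ± 1.99 CPM in wild type. All 6 tested hepatocyte markers rose, where 40.3% of all tested genes did. The summed level of these markers was 39014 to 40026 CPM in knockout libraries, against 1392 to 1460 CPM in wild-type libraries, most of it ALB. Of 3 bile duct markers tested, KRT19 and SOX9 rose and KRT7 fell, and their sum was 331 to 354 CPM in the knockout, against 118 to 121 CPM in wild type. Of 5 tested markers of stellate or mesenchymal cells, ACTA2 and COL1A1 rose and DES, LRAT and PDGFRB fell (median -0.83). Their sum was 68.5 to 71.8 CPM in the knockout, most of it ACTA2, against 42.9 to 45.0 CPM in wild type. ACTA2 averaged 55.7 ± 0.85 CPM in the knockout and 8.90 ± 0.25 CPM in wild type. DES averaged 1.18 ± 0.19 CPM in the knockout and 18.5 ± 0.32 CPM in wild type. PECAM1 was the single endothelial marker tested and stayed at or below 0.59 CPM in the knockout, against 1.53 to 1.64 CPM in wild type. Of the leukocyte markers tested, CD68 rose and CD14 fell, although CD14 lost its call under 6 of 14 alternatives. Their sum was 20.05 to 20.9 CPM in the knockout, against 11.4 to 14.9 CPM in wild type. RN7SK, an RNA that mRNA kits are not made to capture, held 2.08% to 2.76% of all signal in knockout libraries, against 2.81% to 3.03% in wild-type libraries.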

How the data were processed

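RNA of 6 HepaRG libraries, 3 per group, was measured; groups and replicate numbers came from the labels. Per the labels' protocols, total RNA was made into libraries with a stranded mRNA kit. Tools named in the submitters' processing notes were limma, edgeR, Bowtie2, Trim Galore and FastQC, on build hg38, without versions. The annotation and the gene filter are not stated there. The sample titles begin with RSEM, the name of a quantification tool, which is not among those tools. The deposited table, although named for log2 values, holds a linear normalized signal of the authors, called scaled CPM here, as its columns sum to 936409 to 1042826. Values step in hundredths of a read, and 67.2% to 76.4% of those under 20 reads were whole within 0.006 of a read, so no count test was used.

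From 16673 rows, 14 pseudoautosomal duplicates were dropped, and 21 symbols that a spreadsheet had made dates were restored. Of 16659 identifiers, 16608 matched GENCODE 29 (GRCh38), which gave coordinates, types and lengths. Promoters came from RefSeq (GRCh38.p14), matched by symbol, with BOP1 left out. Genes above 1 scaled CPM in at least 3 of 6 libraries were tested on log2(scaled CPM + 0.5). The test was limma 3.58.1 in R 4.3.3 (by group, empirical Bayes with trend, two-sided, Benjamini-Hochberg over all genes tested, threshold 0.05). On simulated counts the same fit called 211 of 15274 genes, 11 of them falsely. Far fewer genes were changed there than were called in these data, so that run is no check on the calls here. Partner ratios were tested by exact permutation (scipy 1.17.1). Python 3.11.15, pandas 2.3.3, numpy 2.4.6 and matplotlib 3.10.9 were also used. Mean chi-square per gene between replicates was 2.22 to 9.84, so no library repeated another.

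Members, lists and motifs were chosen with earlier results of these data known. Named were the 10 genes, all polymerase I and MYC network genes, up to 2 largest rises and falls of each list, the nearest profiles, NR1I2 and RN7SK; some genes that this rule names are not reported here. UBTF, RRN3, SNU13, NOP10, SHQ1, WDR12, MKI67, MDM2, CDKN1A, the markers, U3, overlapping genes, pseudogenes and genes that did not pass the test were added after their values were seen. Small nucleolar RNAs in introns of the 10 genes were not analysed here. Alternatives were another pseudocount, no filter, a replicate block, other scalings, no trend and leaving out each library.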

Additional observations from a re-analysis of the deposited data

How the results depend on the processing

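All 10 genes stayed lower and called under each of 14 alternatives. PES1 lay between -1.84 and -1.63 and RRP9 between -0.67 and -0.49 on the log2 scale. The 4 partner ratios kept their sign in every alternative run, but most of these runs could not have changed it. Scaling a whole library barely alters a ratio within it. Leaving out 1 library cannot turn the sign where the groups do not overlap. Scaling libraries to equal sums moved the median of all tested genes from 0.01 to -0.12 (-0.13 without small RNA genes), and the split of calls from 6534 higher and 6426 lower to 5358 and 7681 (5256 and 7868). The median of the 10 genes relative to that of all genes was -0.84 as deposited and -0.85 with either scaling. Such scaling shifts nearly all genes alike, so this relative value could hardly change and is no check. With either scaling the number of genes called higher became 1 in the box C/D list, 0 in the large subunit list and 2 in the MYC network. Leaving out 1 library at a time gave 1 to 2 higher in the large subunit list, 3 to 6 in the MYC network and 0 to 1 among ribosomal proteins. MYC turned to -0.0068 and -0.025 with equal sums. Genes that missed the threshold near 0 also changed sign. UTP4 became -0.11 and -0.13 with equal sums and -0.025 with quantile normalization, and lay between -0.035 and 0.058 with 1 library left out. DDX56 became -0.13 and -0.15 with equal sums and -0.052 with quantile normalization, and lay between -0.0094 and 0.026 with 1 library left out. SENP3 became -0.099 and -0.12 with equal sums. NOP14 lay between -0.032 and 0.0060 with 1 library left out. NAF1, NOP14, DDX56 and SENP3, not called as deposited, were called lower with either equal-sum scaling, and NAF1 also with quantile normalization (-0.31) and without knockout library 2 (-0.31). With the replicate number as a block, 6518 genes were higher and 6398 lower, and all 10 genes stayed lower. Deviations of same-numbered libraries correlated at -0.020, -0.061 and 0.025, and not every library correlated best with its own number. No pairing by number was seen, but 3 libraries per group cannot exclude one. The cause of these shifts was not tested beyond the rescaling itself. With 3 libraries per group the exact permutation test of a ratio cannot go below p = 0.1.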
